A study of Mus musculus with 24 samples.

Results

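The genes described here are 9 mouse genes for serine/threonine kinases, several of them known to be induced at the level of the transcript: the polo-like kinases Plk2 and Plk3, the salt-inducible kinases Sik1, Sik2 and Sik3, the serum- and glucocorticoid-regulated kinases Sgk1 and Sgk3, and the Pim kinases Pim1 and Pim3. They were taken by symbol, through their Ensembl identifiers, from the 45792 genes of the count table. All 9 had enough reads to be tested, among 16777 genes that did. Their levels were followed over 2 genotypes and 3 conditions of brain-derived neurotrophic factor (BDNF) treatment.

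BDNF is a secreted growth factor that binds the receptor TrkB on neurons and switches on the Ras-ERK, PI3K-Akt and phospholipase C pathways, which in turn drive a wave of immediate early transcription and a later wave of effector genes. Several kinases are made in this way. Plk2 (also called Snk) and Plk3 (Fnk) are activity-induced in neurons, and Plk2 phosphorylates postsynaptic proteins in the scaling-down of synapses during prolonged activity. Salt-inducible kinases belong to the AMPK family, are switched on by Lkb1, and hold the CREB coactivators of the Crtc family and class IIa histone deacetylases in the cytoplasm. Sik1 is itself a CREB target. Sgk kinases are relatives of Akt and are activated by mTORC2 and Pdk1. Pim kinases have no regulatory domain and are active once translated, so that transcription and turnover set their activity.

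Polyadenylated RNA was sequenced from primary cortical neurons isolated from mouse embryos (E16.5) and cultured for 12 days. The study compared wild-type (WT) neurons with neurons labelled H2BE-KO/mCherry-KI (KO here, the name of the label), a knockout of the histone H2B variant H2BE with an mCherry knock-in by that label. Neurons of each genotype were left without BDNF (control), or were collected after BDNF for 30 min or for 24 h, with 4 biological replicates in each of the 6 groups. The labels tie the knockout to no promoter or cell type, and no BDNF dose was found in the labels. Each library also carries a code shared by 1 library of each condition of that genotype, and libraries with the same code are called a culture here, although what the code marks is not stated.

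Libraries held 19780486 to 62135270 counts. The 12 markers of cortical neurons summed to between 6550 and 8270 CPM (read counts scaled to library size) in all 24 libraries. Single neuronal markers differed all the same: between KO and WT controls Gad1 and Gad2, which make GABA, were higher in KO (log2 ratios 1.03 and 1.19) and 5 were lower (-1.88 to -0.70), and in WT at 24 h Slc17a6 was higher (1.18) and Rbfox3 (-0.99) and Tubb3 (-0.69) were lower. The part of these shifts in the kinase values was not tested. The 10 astrocyte markers summed to 456 to 640 CPM in the WT libraries and 185 to 477 CPM in the KO libraries, and the 8 microglial markers to at most 16.04 CPM, with P2ry12 at 0 in 14 libraries and Tmem119 at 0 in 16. The astrocyte sum was largely Slc1a2, with a median of 334 CPM (159 to 575). The next marker, Slc1a3, had a median of 19.3 CPM, and Gfap one of 1.37 CPM. Hist2h2be, the gene that encodes H2BE, was at 3.15 to 5.83 CPM in WT libraries and at 49.96 to 63.1 CPM in 11 KO libraries, so the reads assigned to it separated the genotypes with the higher values in KO. These counts do not show the loss that the label names, and which part of the gene was removed was not found in the labels. The library labelled KO 24 h replicate 4 stood between them at 21.2 CPM. KO culture 4 also had a mitochondrial share of 18.5%, 21.7% and 10.9% of counts in control, 30 min and 24 h, against 4.18% to 6.40% in WT, and KO culture 3 lay above the WT range too, at 7.52% to 9.34%. The KO 30 min library of replicate 3 had the fewest counts and genes. These 4 KO libraries (culture 4 and the 30 min library of replicate 3) were left out in a further fit, whose values are given where they change a call. That fit kept only KO replicates 1 and 2 at 30 min, and KO replicates 1, 2 and 3 in controls and at 24 h.

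The stretches just before the transcription start are printed for 5 of the kinases, the 2 polo-like kinases and the 3 genes that moved most at one or both times and were listed in RefSeq (GRCm38.p6), because CREB, SRF and EGR factors are known mediators of BDNF-induced transcription. Each is on the gene's own strand, 5′ to 3′, and ends at the RefSeq start, except that Pim1 and Pim3 end at the more upstream GENCODE M21 start, 32 and 8 bases short of it. Capitals mark the CRE (TGACGTCA), its core TGACG, and the EGR site (GCGNGGGCG), each searched on both strands. The stretches are chr13:110394794-110395043 for Plk2 (plus strand), chr4:117133964-117134213 for Plk3 (minus strand), chr9:46012570-46012819 for Sik3 (plus strand), chr17:29490535-29490752 for Pim1 (plus strand) and chr15:88861944-88862185 for Pim3 (plus strand).
Plk2: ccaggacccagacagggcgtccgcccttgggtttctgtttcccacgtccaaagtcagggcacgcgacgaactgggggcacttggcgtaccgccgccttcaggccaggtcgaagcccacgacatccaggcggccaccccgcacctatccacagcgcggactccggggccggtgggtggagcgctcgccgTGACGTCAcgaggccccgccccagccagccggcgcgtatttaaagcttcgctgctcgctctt
Plk3: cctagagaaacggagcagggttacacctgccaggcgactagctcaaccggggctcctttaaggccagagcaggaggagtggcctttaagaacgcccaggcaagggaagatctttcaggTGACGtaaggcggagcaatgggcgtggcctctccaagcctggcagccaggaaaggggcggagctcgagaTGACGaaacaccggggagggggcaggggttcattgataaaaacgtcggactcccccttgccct
Sik3: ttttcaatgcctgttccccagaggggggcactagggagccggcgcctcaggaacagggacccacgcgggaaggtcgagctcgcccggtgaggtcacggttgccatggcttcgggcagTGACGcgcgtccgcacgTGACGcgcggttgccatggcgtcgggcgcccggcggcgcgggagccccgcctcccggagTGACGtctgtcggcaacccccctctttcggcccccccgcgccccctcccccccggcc
Pim1: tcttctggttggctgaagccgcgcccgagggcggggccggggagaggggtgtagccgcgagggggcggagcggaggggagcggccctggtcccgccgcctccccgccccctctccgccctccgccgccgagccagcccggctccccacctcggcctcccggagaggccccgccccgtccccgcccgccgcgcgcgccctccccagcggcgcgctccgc
Pim3: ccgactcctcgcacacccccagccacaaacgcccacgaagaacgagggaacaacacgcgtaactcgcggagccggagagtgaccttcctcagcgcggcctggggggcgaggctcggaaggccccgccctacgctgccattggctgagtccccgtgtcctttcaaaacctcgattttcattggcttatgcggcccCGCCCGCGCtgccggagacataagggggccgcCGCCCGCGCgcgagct

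Matches were searched from 250 bases before to 50 after the RefSeq start in the 7 kinases with an entry, Sik1 and Sgk3 having none. Plk2 held a full CRE whose first base was at -62, a motif that 1.79% of 32851 mouse promoters of this length held, and a further core at 21. The CRE contains its core on both strands. Plk3 held the 5-base core at -132 and -63, and Sik3 held it at -133, -116 and -57, a motif held by 20.8% of promoters. Pim3 held 2 EGR sites at -56 and -24, a motif found in 5.55% of promoters, and Sik2 held 1 at -27 beside cores at -1 and 12. The first Pim1 promoter held none of the CRE, AP-1 (TGANTCA), EGR or CArG letters. A match describes the letters and is not evidence of binding.

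In unstimulated WT neurons Plk2 was the most abundant of the 9 transcripts per length. Scaled to the exonic length of all annotated exons, Plk2 stood at 32.2 ± 1.4 CPM per kb (SD, n = 4). Plk3 (10.5 ± 2.5), Sik3 (10.2 ± 2.9), Pim3 (8.70 ± 0.64), Sik1 (8.37 ± 1.3) and Sgk1 (7.26 ± 0.37 CPM per kb) followed, and neighbours in this order did not differ beyond their spread. Sik2 was lower at 3.68 ± 0.44 CPM per kb. Pim1 (0.759 ± 0.31) and Sgk3 (0.601 ± 0.011 CPM per kb) were the scarcest and overlapped, and Pim1 was counted with as few as 46 reads in 1 library. The order rests on annotated exon lengths, which understate genes with many rarely used exons, such as Sgk3.

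The kinases that passed the test after BDNF differed between the 2 times, with Plk2 common to both. After 30 min in WT neurons, Plk2, Sik1 and Pim3 rose, 3 of the 9 kinases, where 0.37% of all tested genes rose. After 24 h, Plk2, Plk3, Sik2, Sik3, Sgk1 and Pim1 rose, 6 of the 9, where 9.55% of tested genes rose. In KO neurons only Plk2 rose at 30 min (0.125% of tested genes rose), and Plk2, Sik3 and Pim1 rose at 24 h (2.91% rose). By edgeR's test 0 kinases fell against their control in either genotype at either time, with 0 falls also at an unadjusted p under 0.05 and by DESeq2. The median log2 fold change of the 9 kinases was 0.36 at 30 min and 0.69 at 24 h in WT, and 0.24 and 0.45 in KO, and the medians of all tested genes were 0.00, -0.01, -0.01 and -0.03. All 4 BDNF libraries lay above all 4 controls for 4 kinases in WT at 30 min (1.96% of tested genes), 7 in WT at 24 h (15.5%), 1 in KO at 30 min (0.614%) and 4 in KO at 24 h (6.26%). Changed here means a Benjamini-Hochberg adjusted p under 0.05 by edgeR's quasi-likelihood test over all tested genes. The 30 min and 24 h comparisons of a genotype share its control libraries.

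**Figure D1:**
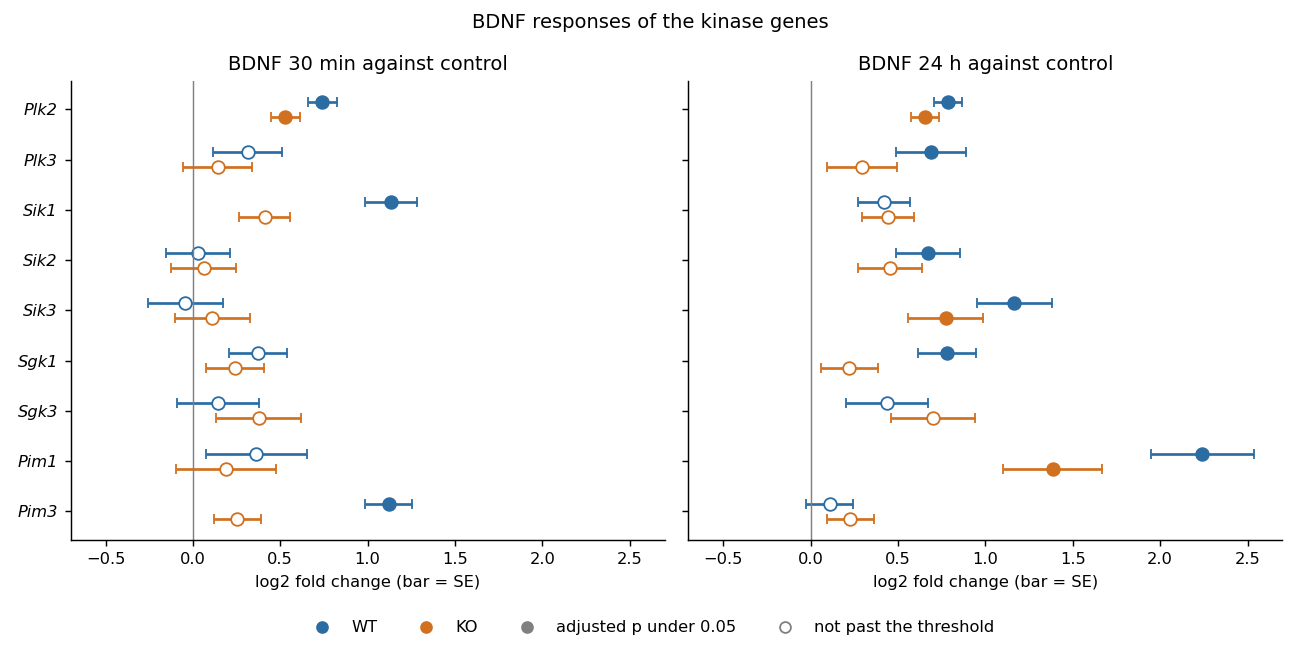
Log2 fold change of each kinase gene after BDNF for 30 min (left) and 24 h (right) against the control of the same genotype, with WT in blue and KO in orange; bars are the SE and filled points passed an adjusted p of 0.05. Sik1 and Pim3 stand at 1.13 and 1.12 in WT at 30 min and below 0.5 in every other panel position, and Pim1 reaches 2.24 in WT at 24 h.

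Plk2 was the one kinase that was higher at both times in both genotypes. The Plk2 gene (ENSMUSG00000021701.8, mm10 chr13:110395046-110400844, plus strand) gave 135, 145, 147 and 151 CPM in the 4 WT controls. After 30 min of BDNF it gave 236, 245, 239 and 247 CPM, and after 24 h 253, 273, 254 and 217 CPM. The treated libraries therefore lay well clear of the controls at both times, and they lay close to each other. The log2 fold change was 0.74 ± 0.08 (SE, adjusted p = 3.51e-06) at 30 min and 0.78 ± 0.08 (adjusted p = 9.08e-07) at 24 h. Between 30 min and 24 h it moved by 0.04 ± 0.08 (adjusted p = 0.800).

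KO controls gave 154, 157, 149 and 146 CPM of Plk2, a log2 ratio to WT of 0.07 ± 0.08 (adjusted p = 0.628). They gave 227, 227, 192 and 227 CPM at 30 min and 235, 249.7, 206 and 261 CPM at 24 h. The lowest of these treated libraries lay above the highest control. The log2 fold changes were 0.53 ± 0.08 at 30 min (adjusted p = 0.00182) and 0.65 ± 0.08 at 24 h (adjusted p = 8.85e-05), and at 30 min the call was lost in a model of the compared groups alone (adjusted p = 0.271). The KO minus WT difference in the 30 min response was -0.21 ± 0.12 and did not pass the test (adjusted p = 1.0). At 30 min all 4 KO libraries lay below all 4 WT libraries.

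Plk3, the stress- and DNA-damage-responsive relative, passed the test at 24 h in WT alone and moved less evenly. The Plk3 gene (ENSMUSG00000028680.14, chr4:117128655-117133963, minus strand) gave 23.9, 26.4, 35.1 and 20.4 CPM in WT controls and 24.7, 36.0, 38.6 and 32.1 CPM at 30 min, values that overlapped. Within each WT culture the 30 min library exceeded its control, by 0.05 to 0.65 log2 units. At 24 h Plk3 gave 38.3, 47.2, 48.0 and 37.0 CPM, all above the highest control. From 30 min to 24 h it moved by 0.38 ± 0.20 (adjusted p = 0.226), and with the culture as a block by 0.38 ± 0.12 (adjusted p = 0.0179). The 24 h change was 0.69 ± 0.20 (adjusted p = 0.0174), and it stayed past the threshold in 4 of the 8 fits that left out 1 library, the largest adjusted p being 0.0727 without WT control replicate 4. In KO the controls were at 39.7, 34.9, 32.2 and 19.2 CPM and the 24 h libraries at 43.2, 41.1, 34.4 and 36.1 CPM, which overlapped. The KO change of 0.29 ± 0.20 did not pass the test (adjusted p = 0.467), and the difference between the genotypes in the 24 h response was -0.39 ± 0.28 (adjusted p = 1.0). Exons of Plk3 share bases with Tctex1d4 on the other strand, which was at 0.0286 CPM or less on average in every group.

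**Figure D2:**
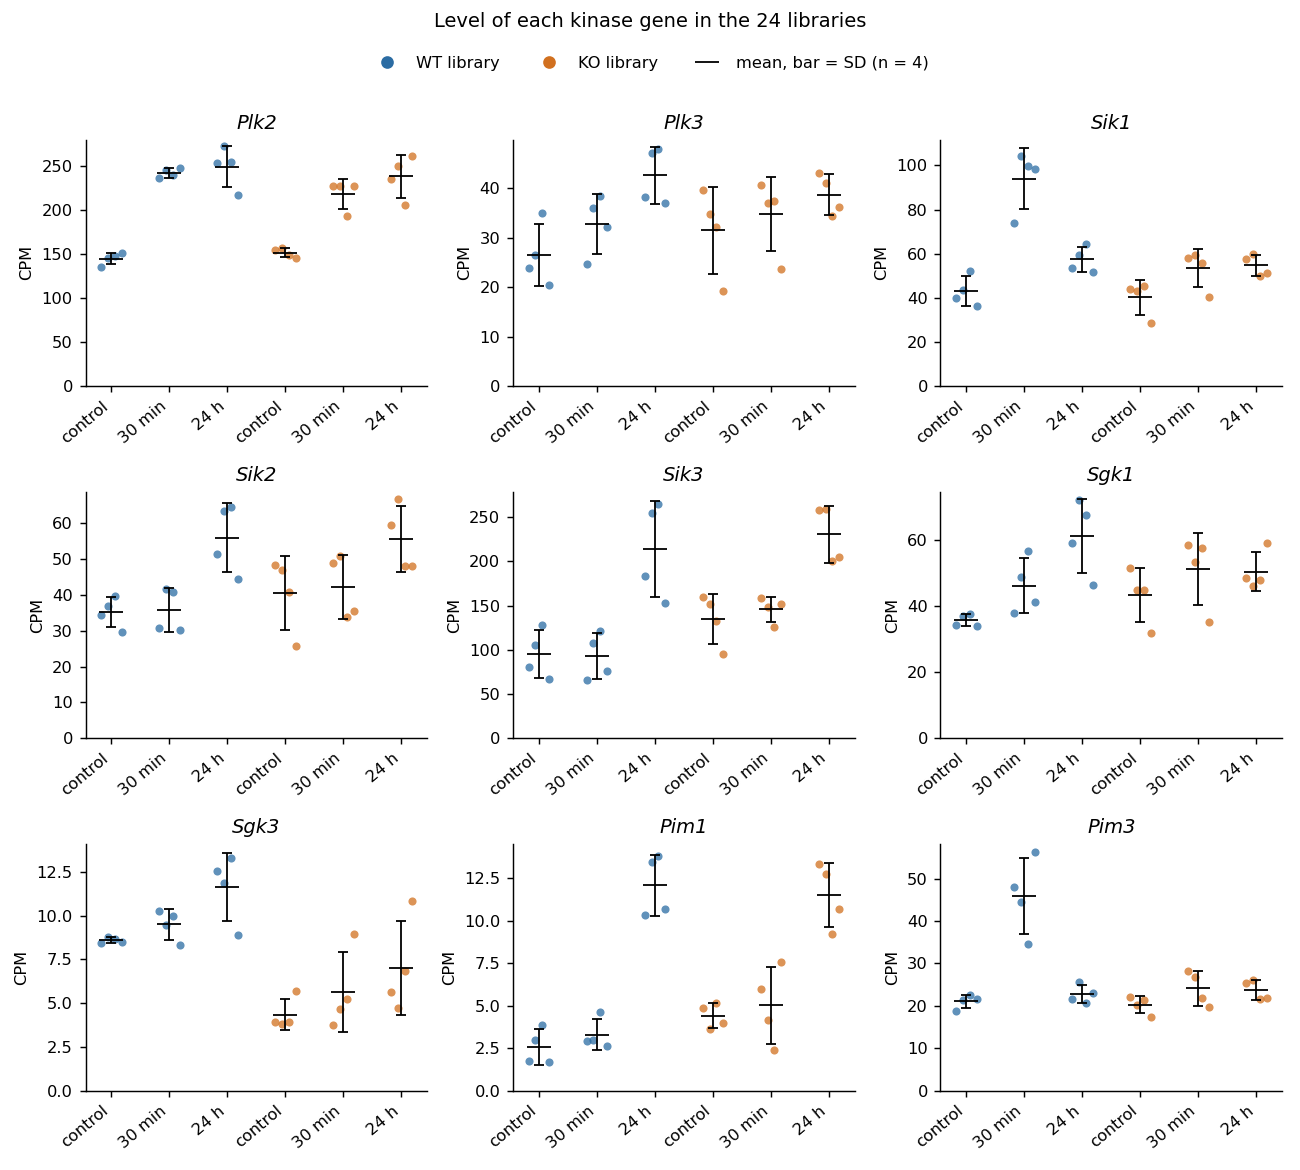
CPM of each of the 9 kinase genes in every library, WT in blue and KO in orange, under control, BDNF 30 min and BDNF 24 h; horizontal lines are group means and bars are SD (n = 4), with each panel on its own axis from 0. Sik1 and Pim3 are highest at 30 min in WT, Plk2 is high at both times, and Sik3 and Pim1 are high at 24 h in both genotypes.

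Among the salt-inducible kinases in WT, Sik1 was highest at 30 min and Sik3 at 24 h, with no time sampled in between. The Sik1 gene (ENSMUSG00000024042.7, chr17:31844250-31855804, minus strand) gave 39.9, 43.5, 52.0 and 36.4 CPM in WT controls. At 30 min it gave 73.9, 104, 99.9 and 98.3 CPM, and at 24 h 53.6, 59.5, 64.4 and 51.8 CPM. Every 30 min library lay above every control and every 24 h library. The 30 min change was 1.13 ± 0.15 (adjusted p = 5.45e-05), a 2.19-fold rise. From 30 min to 24 h Sik1 fell by 0.71 ± 0.15 on the log2 scale (adjusted p = 0.00158).

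What was left of the Sik1 rise at 24 h lay at the edge of the test, at 0.42 ± 0.15 (adjusted p = 0.0512). With the culture as a block it was 0.42 ± 0.10 (adjusted p = 0.00203), and without the 4 KO libraries 0.42 ± 0.11 (adjusted p = 0.00704). KO neurons had 43.9, 43.0, 45.5 and 28.5 CPM of Sik1 in controls, 58.2, 59.5, 55.8 and 40.5 CPM at 30 min and 57.8, 59.8, 50.1 and 51.4 CPM at 24 h. The library of KO culture 4 was the lowest at control and 30 min. The KO changes, 0.41 ± 0.15 at 30 min (adjusted p = 1.0) and 0.44 ± 0.15 at 24 h (adjusted p = 0.0829), did not pass the test, and the block brought the 24 h change past it (0.47 ± 0.10, adjusted p = 0.00248).

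Sik2, the form linked to CREB-dependent transcription in neurons, did not move at 30 min and rose by a modest amount at 24 h. The Sik2 gene (ENSMUSG00000037112.16, chr9:50892801-51009073, minus strand) gave 34.4, 36.9, 39.6 and 29.7 CPM in WT controls and 51.5, 63.3, 64.5 and 44.5 CPM at 24 h, which did not overlap. The change was 0.67 ± 0.18 (adjusted p = 0.0122) and passed in 5 of 8 fits that left out 1 library, the largest adjusted p being 0.0602 without WT 24 h replicate 3. In KO it was 0.45 ± 0.18 (adjusted p = 0.170), and with the block 0.47 ± 0.09 (adjusted p = 0.00157). Exons of Sik2 share bases with Ppp2r1b on the other strand, whose own WT 24 h change was 0.12 ± 0.19 (adjusted p = 0.752), and reads of the shared bases cannot be told apart without the strand setting of the counting.

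Sik3, a kinase known from sleep need and metabolism, rose 2.24-fold in WT by 24 h. The Sik3 gene (ENSMUSG00000034135.15, chr9:46012820-46224194, plus strand) gave 80.3, 106, 128 and 67.0 CPM in WT controls and 65.6, 108, 121 and 75.8 CPM at 30 min. At 24 h it gave 183, 255, 265 and 153 CPM. Cultures 2 and 3 were the highest of the 4 in each condition, and within each culture the 24 h library exceeded its control by 1.04 to 1.26 log2 units. The change was 1.16 ± 0.22 at 24 h (adjusted p = 0.000486) and -0.04 ± 0.21 at 30 min (adjusted p = 1.0).

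KO neurons gave 159, 152, 133 and 95.4 CPM of Sik3 in controls, 158, 148, 126 and 151 CPM at 30 min and 258, 259, 201 and 205 CPM at 24 h. The 24 h libraries again lay above all controls. The KO change was 0.77 ± 0.21 (adjusted p = 0.0351). It passed in 3 of 8 fits that left out 1 library, the largest adjusted p being 0.120 without KO control replicate 4, and it was 0.70 ± 0.24 (adjusted p = 0.0758) without the 4 KO libraries.

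The 2 Pim kinases, survival kinases of the cytokine and growth factor response, were highest in WT at different times, Pim3 at 30 min and Pim1 at 24 h. The Pim3 gene (ENSMUSG00000035828.11, chr15:88862186-88865726, plus strand) gave 18.9, 21.3, 22.5 and 21.7 CPM in WT controls. It gave 48.1, 44.5, 34.6 and 56.2 CPM at 30 min and 21.6, 25.6, 20.7 and 23.0 CPM at 24 h. The 30 min libraries stood apart from both other groups, which overlapped. The 30 min change was 1.12 ± 0.14 (adjusted p = 1.35e-05), a 2.17-fold rise, and from 30 min to 24 h Pim3 fell by 1.01 ± 0.14 on the log2 scale (adjusted p = 1.60e-05). At 24 h it differed from control by 0.11 ± 0.13 (adjusted p = 0.659).

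In KO neurons Pim3 gave 22.1, 20.2, 21.4 and 17.4 CPM in controls, 28.3, 26.8, 21.7 and 19.7 CPM at 30 min and 25.4, 26.2, 21.5 and 21.9 CPM at 24 h. The groups overlapped at 30 min, with cultures 1 and 2 above the controls and cultures 3 and 4 within their range. The changes were 0.25 ± 0.14 (adjusted p = 1.0) at 30 min and 0.23 ± 0.13 (adjusted p = 0.389) at 24 h.

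Pim1 had the largest fold change of the 9 kinases, from a low level. The Pim1 gene (ENSMUSG00000024014.8, chr17:29490753-29496112, plus strand) gave 1.74, 2.97, 3.83 and 1.67 CPM in WT controls, 2.92, 2.96, 4.64 and 2.63 CPM at 30 min, and 10.3, 13.5, 13.8 and 10.7 CPM at 24 h. Control and 30 min values overlapped, and the 24 h values lay above both. The 24 h change was 2.24 ± 0.29 (adjusted p = 1.18e-05), a 4.73-fold rise. In KO the values were 4.88, 3.63, 5.16 and 3.95 CPM in controls, 5.97, 4.13, 2.37 and 7.59 CPM at 30 min and 13.3, 12.7, 9.23 and 10.7 CPM at 24 h.

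The KO rise of Pim1 was 1.38 ± 0.28 (adjusted p = 0.00515), 2.61-fold. The 24 h levels of the genotypes overlapped (12.1 ± 1.81 CPM in WT and 11.5 ± 1.89 CPM in KO, SD, n = 4), and the KO controls were at 4.41 ± 0.733 CPM against 2.55 ± 1.04 CPM in WT. That difference between controls was 0.79 ± 0.29 (adjusted p = 0.0560) and the difference in the 24 h response was -0.86 ± 0.40 (adjusted p = 0.870). Without the 4 KO libraries the control difference was 0.83 ± 0.26 (adjusted p = 0.0218). Gm26885, whose exons overlap Pim1 on the other strand, was at 0.0619 CPM or less on average in every group.

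Sgk1, the form induced by glucocorticoids, serum and neuronal activity, rose by 24 h in WT neurons. The Sgk1 gene (ENSMUSG00000019970.15, chr10:21882184-21999903, plus strand) gave 34.2, 36.8, 37.5 and 33.9 CPM in WT controls and 38.0, 48.6, 56.5 and 41.0 CPM at 30 min, all 4 above every control. At 24 h it gave 59.1, 71.9, 67.4 and 46.3 CPM. The change was 0.37 ± 0.17 at 30 min, which did not pass the test (adjusted p = 1.0), and 0.78 ± 0.17 at 24 h (adjusted p = 0.00167).

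KO neurons gave 51.3, 44.6, 44.9 and 31.8 CPM of Sgk1 in controls and 48.5, 46.1, 47.7 and 59.1 CPM at 24 h. At 30 min they gave 58.3, 53.4, 57.6 and 35.0 CPM, and each culture exceeded its control, by 0.14 to 0.36 log2 units. The KO change at 30 min, 0.24 ± 0.17, did not pass the test. Cultures 1, 2 and 3 moved by -0.08, 0.05 and 0.09 log2 units at 24 h and culture 4 by 0.89. The KO change at 24 h was 0.22 ± 0.16 (adjusted p = 0.522). Its difference from the WT 24 h response was -0.56 ± 0.23 (adjusted p = 0.793), and -0.76 ± 0.18 (adjusted p = 0.0674) without the 4 KO libraries.

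Sgk3, the endosomal member that binds phosphatidylinositol 3-phosphate, had its higher values at 24 h and did not pass the test in the model with no block. The Sgk3 gene (ENSMUSG00000025915.14, chr1:9798107-9900845, plus strand) gave 8.42, 8.77, 8.68 and 8.52 CPM in WT controls, 10.3, 9.44, 9.97 and 8.30 CPM at 30 min and 12.5, 11.9, 13.3 and 8.87 CPM at 24 h. The 24 h libraries lay above all controls, with culture 4 only just above. The 24 h change was 0.44 ± 0.24 in WT (adjusted p = 0.220) and 0.70 ± 0.24 in KO (adjusted p = 0.0927). With the culture as a block both passed, at 0.42 ± 0.13 (adjusted p = 0.0169) and 0.63 ± 0.13 (adjusted p = 0.00299), and so they did without the 4 KO libraries, at 0.43 ± 0.13 (adjusted p = 0.0146) and 0.56 ± 0.15 (adjusted p = 0.0256). DESeq2 called the KO change as well (adjusted p = 0.0436), and all 4 cultures of each genotype were higher at 24 h than their control. The block brought the kinases that rose at 24 h to 8 of 9 in WT (15.9% of tested genes rose) and 6 of 9 in KO (8.30% rose).

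Set directly against each other, 24 h and 30 min differed for 5 kinases in WT. Pim1 (1.88 ± 0.29), Sik3 (1.21 ± 0.22) and Sik2 (0.64 ± 0.18) were higher at 24 h, where 7.91% of tested genes were higher, and Pim3 and Sik1 were lower, where 8.18% were lower. Sgk1 did not pass (0.41 ± 0.16, adjusted p = 0.0969), and joined them without the 4 KO libraries (0.42 ± 0.12, adjusted p = 0.0136). Sik2 lost its call in 4 of the 8 fits that left out 1 library, the largest adjusted p being 0.0812 without WT 24 h replicate 3. In KO only Pim1 was higher at 24 h (1.19 ± 0.28, adjusted p = 0.0231), where 1.24% of genes were, and that call too was lost in 4 of 8 fits, the largest adjusted p being 0.0768 without KO 30 min replicate 2.

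KO and WT neurons were compared under each condition to ask how kinase levels differed between the labelled genotypes. Every direction here rests on those labels, since Hist2h2be reads were higher in KO. Without BDNF 1 of the 9 kinases, Sgk3, was lower in KO, where 10.1% of tested genes were lower, so the count is near the background. At 30 min Pim3, Sik1 and Sgk3 were lower, 3 of 9, where 13.8% of tested genes were lower, and Sik3 was higher, 1 of 9, where 14.6% were higher. At 24 h Sgk3 was lower, 1 of 9, where 6.16% of genes were lower. The groups did not overlap, KO below WT, for Sgk3 in controls (13.3% of tested genes) and for Plk2, Sik1 and Pim3 at 30 min (13.4%). Sik3 at 30 min did not overlap either, with KO above WT (11.9%).

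**Figure D3:**
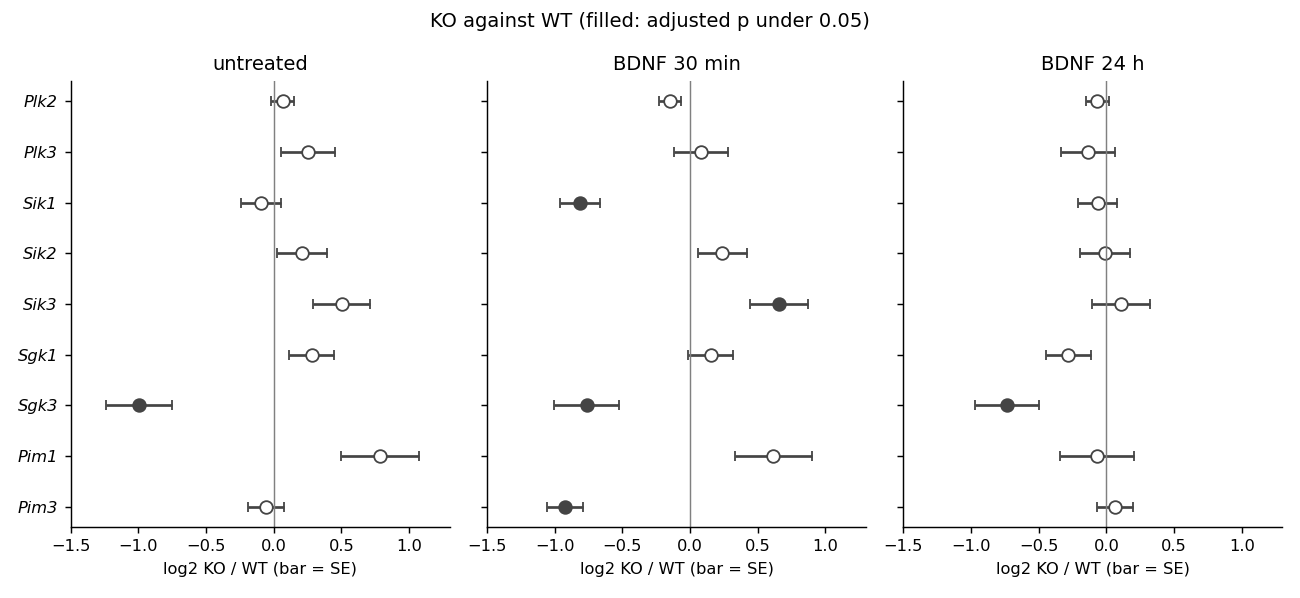
Log2 ratio of KO over WT for each kinase gene without BDNF, after 30 min and after 24 h; bars are the SE and filled points passed an adjusted p of 0.05. Sgk3 lies between -1.0 and -0.73 in all 3 panels, and Sik1 and Pim3 leave 0 at 30 min alone.

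Pim3 and Sik1 were lower in KO at 30 min, the condition in which both were highest in WT. Pim3 was at 24.1 ± 4.07 CPM in KO and 45.9 ± 8.95 CPM in WT (SD, n = 4), a log2 ratio of -0.92 ± 0.14 (adjusted p = 3.05e-05). Sik1 was at 53.5 ± 8.81 CPM in KO and 94.1 ± 13.7 CPM in WT, a log2 ratio of -0.81 ± 0.15 (adjusted p = 0.000294). Both calls held in all 8 fits that left out 1 library. Without the 4 KO libraries, with only KO replicates 1 and 2 kept at 30 min, the ratios were -0.73 ± 0.14 and -0.67 ± 0.14. In controls the ratios were -0.06 ± 0.13 (adjusted p = 0.813) for Pim3 and -0.09 ± 0.15 (adjusted p = 0.715) for Sik1, and at 24 h they were 0.06 ± 0.13 (adjusted p = 0.832) and -0.07 ± 0.15 (adjusted p = 0.837).

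The difference between the genotypes in the 30 min response itself depended on the model. Within a culture, the 30 min library exceeded its control in Sik1 by 0.89, 1.26, 0.94 and 1.43 log2 units in WT and by 0.41, 0.47, 0.29 and 0.50 in KO. For Pim3 the values were 1.35, 1.06, 0.62 and 1.37 in WT and 0.35, 0.41, 0.02 and 0.18 in KO. Plk2 ran from 0.70 to 0.80 in WT and from 0.37 to 0.64 in KO, and its difference in response (-0.21 ± 0.12) did not pass the test. In the model without a block the KO minus WT difference was -0.72 ± 0.21 for Sik1 (adjusted p = 0.989) and -0.87 ± 0.19 for Pim3 (adjusted p = 0.121), and 0 kinases passed, where 0.0477% of tested genes had a lower response in KO. At an unadjusted p under 0.05 both were lower, 2 of 9, where 1.79% of tested genes differed in either direction. With the culture as a block the differences were -0.72 ± 0.14 (adjusted p = 0.0280) and -0.86 ± 0.15 (adjusted p = 0.0195), and both passed, 2 of 9 where 0.179% of genes did. DESeq2 called Pim3 alone (-0.86 ± 0.20, adjusted p = 0.0194), where 0.0827% of the genes it tested were lower. Without the 4 KO libraries, and with no block, the differences were -0.71 ± 0.18 (adjusted p = 0.526) and -0.74 ± 0.19 (adjusted p = 0.503). For the 24 h response 0 kinases passed by edgeR or DESeq2, where 0.0238% of tested genes had a higher and 0.0119% a lower response in KO. At an unadjusted p under 0.05, 2 were lower in KO, where 5.6% of tested genes differed in either direction.

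**Figure D4:**
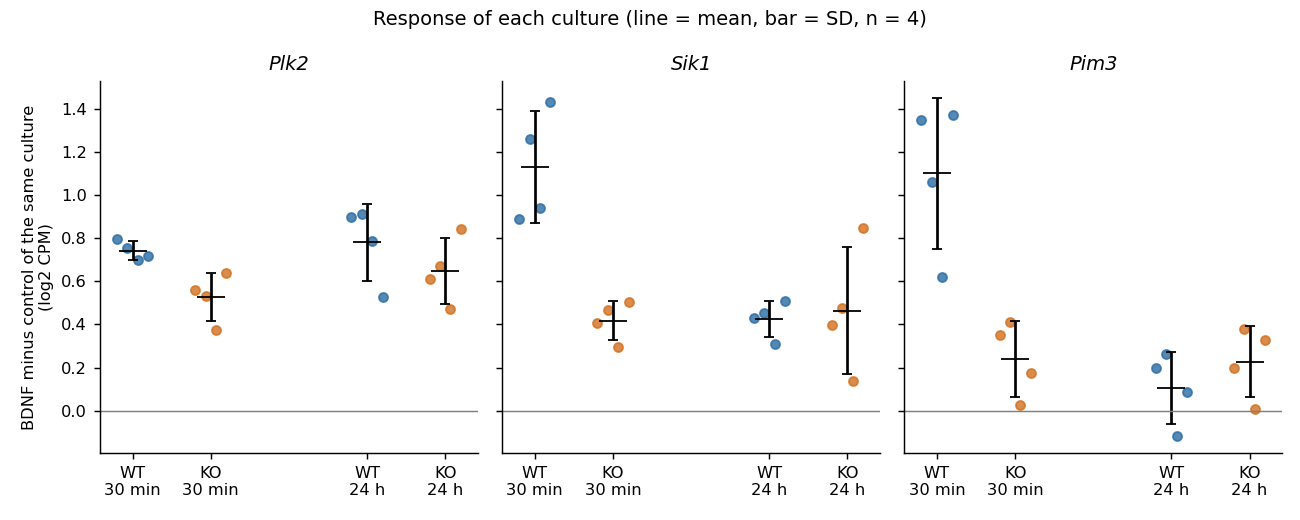
Log2 CPM of each BDNF library minus the control library of the same culture for Plk2, Sik1 and Pim3, WT in blue and KO in orange; lines are means and bars SD (n = 4 cultures). At 30 min the WT mean lies above the KO mean for each of the 3 genes, and at 24 h the cultures of the genotypes overlap for all 3.

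Sgk3 was the one kinase called lower in KO under all 3 conditions, and Sik1, whose mean was also lower each time, was called at 30 min alone. KO neurons gave 3.94, 3.79, 3.94 and 5.68 CPM in controls, 3.73, 4.67, 5.25 and 8.95 CPM at 30 min and 5.64, 4.71, 6.81 and 10.8 CPM at 24 h. Culture 4 was the highest each time, and at 30 min and 24 h it fell within the WT range. The log2 ratios of KO to WT were -1.0 ± 0.24 in controls (adjusted p = 0.00458), -0.76 ± 0.24 at 30 min (adjusted p = 0.0194) and -0.73 ± 0.24 at 24 h (adjusted p = 0.0415). The 30 min call held in 6 of 8 fits that left out 1 library, and was lost without WT replicate 1 (adjusted p = 0.0502) or KO replicate 1 (adjusted p = 0.0551). The 24 h call held in 2 of 8, with a largest adjusted p of 0.130 without KO 24 h replicate 2.

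Without the 4 KO libraries the Sgk3 ratios were -1.15 ± 0.15 (adjusted p = 1.05e-05), -1.17 ± 0.17 (adjusted p = 5.04e-05) and -1.02 ± 0.14 (adjusted p = 3.00e-05), where 15%, 13.5% and 15.5% of tested genes were lower. In that fit Sgk1 was also higher in KO controls (0.40 ± 0.13, adjusted p = 0.0259), where 15.6% of genes were higher, and lower in KO at 24 h (-0.36 ± 0.13, adjusted p = 0.0442). The summed astrocyte markers differed between the genotypes as well, at 462 to 632 CPM in WT controls and 185 to 327 CPM in KO controls, with 2 of the 10 lower in controls, 7 at 30 min and 1 at 24 h. This sum was largely Slc1a2, with a log2 ratio of -0.92 in controls. Sox9 alone had a ratio above 0 there (0.66, adjusted p = 0.145). The sum of KO culture 4 reached 477 CPM at 24 h. The part of these cells in the Sgk3 difference was not tested, and in bulk RNA fewer cells of a type and less RNA per cell cannot be told apart.

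Sik3 was higher in KO at 30 min, at 146 ± 14 CPM against 92.6 ± 26.2 CPM in WT (SD, n = 4). The log2 ratio was 0.66 ± 0.21 (adjusted p = 0.0243), and it passed in 3 of 8 fits that left out 1 library, the largest adjusted p being 0.10 without WT 30 min replicate 1. In controls the ratio was 0.50 ± 0.21 (adjusted p = 0.0991) and at 24 h 0.11 ± 0.21 (adjusted p = 0.812). Without the 4 KO libraries the control ratio was 0.63 ± 0.22 (adjusted p = 0.0371), and Sik2 was then higher in KO at 30 min too (0.48 ± 0.16, adjusted p = 0.0338).

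The partners and substrates of the kinases were read from lists chosen by function. At 30 min 0 of their 57 tested genes passed edgeR's test in either genotype, and 0 by DESeq2, with 2 under an unadjusted p of 0.05 in WT and 2 in KO, where 1.81% and 4.3% of all tested genes were. Of 16 genes of the Lkb1 complex and the AMPK-related kinases, all of them tested, 3 rose in WT at 24 h and 1 fell. The counts of this and the next lists at 24 h stand beside 9.55% of all tested genes higher and 9.13% lower. Nuak1, an AMPK-related kinase of axon branching, changed by 0.47 ± 0.12 (adjusted p = 0.00959), the microtubule affinity kinase Mark3 by 0.34 ± 0.09 and the Lkb1 scaffold Cab39 by 0.31 ± 0.08. Stradb, the pseudokinase partner of Lkb1, fell by 0.49 ± 0.09 on the log2 scale (adjusted p = 0.000552). The median of the list was -0.05, beside -0.01 for all genes.

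Among the 7 tested substrates of salt-inducible kinases 1 fell in WT at 24 h, the deacetylase Hdac7 at -0.49 ± 0.16 (adjusted p = 0.0317). Among the synaptic substrates of Plk2 the Ras exchange factor Rasgrf1 fell (-0.72 ± 0.21, adjusted p = 0.0198). Of 8 genes listed as substrates or partners of Sgk kinases 1 rose, the glucocorticoid-induced leucine zipper gene Tsc22d3 (0.61 ± 0.09, adjusted p = 4.20e-05), and 2 fell, the forkhead factor Foxo3 (-0.55 ± 0.15) and the ubiquitin ligase Nedd4l (-0.29 ± 0.10).

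The Pim list held the largest change among the partners. Of its 7 genes 2 rose in WT at 24 h and 1 fell. Cdkn1a, the gene for the cell cycle inhibitor p21, stood at 72.3 ± 6.18 CPM in WT controls and 199 ± 23.3 CPM at 24 h (SD, n = 4), a change of 1.46 ± 0.12 (adjusted p = 6.29e-08). In KO it went from 103 ± 13.9 to 185 ± 19.98 CPM, a change of 0.84 ± 0.12 (adjusted p = 0.000311), and it was the one of the 57 genes that passed in KO at 24 h, where DESeq2 called 5. Eif4ebp1, which holds back cap-dependent translation, rose by 1.12 ± 0.25 (adjusted p = 0.00254) in WT, and the death promoter Bad changed by -0.42 ± 0.13 (adjusted p = 0.0242). Of the 5 other family members, Pim2 was the most abundant in WT controls, at 33.9 ± 2.94 CPM, Sgk2 was too low to test, and 0 of the other 4 passed edgeR's test or DESeq2 with BDNF at either time, with 1 lower at 24 h under an unadjusted p of 0.05 in each genotype (30.4% of tested genes in WT and 18.7% in KO in either direction).

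The oligodendrocyte-lineage markers also moved at 24 h in WT, where the 8 genes summed to 56.7 to 89.9 CPM against 35.5 to 45.01 CPM in controls, with 1 of them called and Sox10 at 0 in 20 of the 24 libraries. In KO they summed to 37.8 to 58.6 CPM at 24 h against 23.3 to 41.4 CPM in controls. Their part in the 24 h changes was not tested. The control labels carry a number, 1 or 2, whose meaning is not stated, and the BDNF labels carry none. Set 2 here is the controls numbered 2 with the BDNF libraries of their culture codes (WT replicates 3 and 4 and KO replicates 2 to 4). In set 2 the WT changes were 1.16 ± 0.24 for Sik1, 1.04 ± 0.23 for Pim3 and 0.70 ± 0.15 for Plk2 at 30 min, and 2.15 ± 0.50 for Pim1 and 1.09 ± 0.33 for Sik3 at 24 h. Of these 5 changes 0 passed edgeR's test at this size (adjusted p = 0.142, 0.202, 0.154, 0.0519 and 0.131). In set 1 alone the WT changes passed for the same 5, at 1.09 ± 0.15 for Sik1 (adjusted p = 0.0351), 1.20 ± 0.12 for Pim3 (adjusted p = 0.00464) and 0.77 ± 0.07 for Plk2 (adjusted p = 0.00364) at 30 min, and 2.31 ± 0.25 for Pim1 (adjusted p = 0.00102) and 1.22 ± 0.25 for Sik3 (adjusted p = 0.0117) at 24 h.

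Of the 57 partner genes 6 were higher and 11 lower in KO than in WT without BDNF. Among the genes listed as Sgk substrates or partners the Sgk1 target Ndrg1 was at 33.5 ± 5.76 CPM in KO and 79.6 ± 4.27 CPM in WT (log2 ratio -1.25 ± 0.20, adjusted p = 9.39e-05), Foxo1 was lower (-1.01 ± 0.29) and Tsc22d3 was higher (0.27 ± 0.09), 3 of 8. Among the activators of Sgk kinases Pdpk1, which encodes Pdk1, was higher (0.32 ± 0.11). Among the salt-inducible kinase substrates Hdac9 (0.61 ± 0.20) and Hdac5 (0.52 ± 0.16) were higher and the CREB coactivator Crtc1 (-0.35 ± 0.10) was lower. Of the Plk2 substrates Rasgrf1 (-0.66 ± 0.21) and Rapgef2 (-0.43 ± 0.12) were lower. The scarce Plk5 was at 0.262 ± 0.231 CPM in KO and 1.45 ± 0.827 CPM in WT (-2.37 ± 0.63, adjusted p = 0.00885). Of all tested genes 11.3% were higher and 10.1% lower in this comparison.

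Across the 24 libraries the kinases fell into sets of like profile, described here by Pearson's r of log2 CPM, with libraries sharing genotype, culture and treatment. Sik1 and Pim3 had an r of 0.86, Sik2 and Sik3 0.91, Sik3 and Pim1 0.90 and Plk3 and Sgk1 0.88, and Sik3 and Pim3 had -0.33. The genes outside the 9 most like Sik1 were Ptbp1 (0.89), the transcription factor Srf (0.89) and Klf6 (0.87). Those most like Pim3 were Cbx8 (0.93), Tob2 (0.92) and Ppp1r10 (0.91). Plk2 was most like Tiparp (0.92), the ERK phosphatase Dusp5 (0.90) and Mcl1 (0.86).

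The late kinases had other nearest genes. Pim1 was most like the galanin receptor Galr1 (0.96), Ltbp1 (0.95) and the tyrosine kinase Syk (0.94), and Galr1 itself was 5.22 log2 units higher at 24 h in WT and 2.75 in KO. Sik3 was most like the protein kinase A subunit Prkar2a (0.98), Rock2 (0.97) and Nrd1 (0.96). Sik2 was like Myh9 and Osbp (0.94 each), Plk3 like Pak4 (0.93), the clock gene Per1 (0.91) and Sec31a (0.90), and Sgk1 like Gdap2 (0.86), Cnot4 (0.85) and Adnp2 (0.84).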

How the data were processed

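The authors deposited raw counts of reads per gene for the 24 libraries. Per the labels' protocols, libraries came from a stranded TruSeq mRNA kit. Per the submitters' processing notes, the tools were STAR 2.7.9a, DESeq2 1.38.3, limma 3.54.2 and edgeR 3.40.2 on mm10. The sources used here name no read counter, strand setting or annotation, so reads of overlapping genes on opposite strands cannot be told apart.

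Symbols and coordinates came from GENCODE M21 by identifier without version, which named 45229 of 45792 genes (98.8%). Genes were kept by filterByExpr (minimum count 10, minimum total 15). One edgeR 4.0.16 quasi-likelihood model in R 4.3.3 held 6 group means over the 24 libraries with TMM scaling (0.824 to 1.07). It left 18 residual degrees of freedom, and the common biological coefficient of variation was 23.5%. Contrasts compared times within a genotype, genotypes within a condition, and the responses. Benjamini-Hochberg adjustment ran over all 16777 tested genes, and each SE was derived from the log2 fold change and its F statistic (absolute change over root F). CPM used TMM factors, and log2 CPM a prior count of 2. The p-values rest on the spread between biological replicates within groups, pooled over the 6 groups and with information shared across genes. In the fits with the culture as a block they rest on the spread left within cultures. The script was tested on simulated counts.

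The members, gene lists and alternatives were chosen with earlier results of these data known. Named genes are the 9 kinases, up to 4 called members of each partner list, and for each kinase called in a BDNF response the 3 genes of at least 1 mean CPM with the highest Pearson correlation. A few genes that this rule names are not reported here. Alternatives were other size factors, no filter, DESeq2 1.42.0, the compared groups alone, the library set as a term, set 2 alone or, added after seeing the data, set 1 alone, leaving out libraries, and a block. The block was the culture code within a genotype and the replicate number between genotypes. Of 24 pairs of libraries sharing a culture code, 22 had correlated deviations from the group means (r over 0.1, range 0.0464 to 0.462), and 0 of 12 pairs sharing only a number did (r -0.0893 to 0.0426). Promoters came from RefSeq (GRCm38.p6).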

Additional observations from a re-analysis of the deposited data

Results flagged for a closer look

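Of 54 groups of 4 libraries examined (9 kinases in 6 groups), 4 had a library far from the other 3 by Dixon's 95% criterion, and chance alone flags about 1 in 20 groups. Plk2 was lowest in KO 30 min replicate 3, at 192 CPM against 227 CPM in each of the others, and that library also had the fewest counts. Sik1 was lowest in KO control replicate 4, at 28.5 CPM against 43.0 to 45.5 CPM. Sgk3 was highest in the same KO control library, at 5.68 CPM against 3.79 to 3.94 CPM, and that library had a mitochondrial share of 18.5%. The part of that share in the Sik1 and Sgk3 values was not tested. Pim1 was highest in WT 30 min replicate 3, at 4.64 CPM against 2.63 to 2.96 CPM.

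The 30 min response differed between the genotypes for 2 kinases in the model with the culture as a block. The KO minus WT difference was -0.72 for Sik1 (adjusted p = 0.0280) and -0.86 for Pim3 (adjusted p = 0.0195). Of all tested genes 0.179% had a lower response in KO by this model. In edgeR's model without the block neither kinase passed (adjusted p = 0.989 and 0.121), nor did either in that model without the 4 KO libraries. DESeq2 called Pim3 alone. Within a culture the Sik1 change was 0.89 to 1.43 log2 units in WT and 0.29 to 0.50 in KO. The Pim3 change was 0.62 to 1.37 in WT. In KO it was 0.35 and 0.41 in cultures 1 and 2 and 0.02 and 0.18 in cultures 3 and 4.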

How the results depend on the processing

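Of 1827 log2 fold changes of single kinases under alternatives, 1634 kept their direction and side of the threshold, 65 lost a call, 43 gained one, and 85 that were called in neither setting changed sign. In library set 2 alone the kinases called numbered 0 in WT at 30 min, 1 in WT at 24 h (Plk2), 0 in KO at 30 min, 0 in KO at 24 h, 1 for WT 24 h against 30 min (Pim3), 0 for KO 24 h against 30 min, and 0, 2 (Sik1 and Pim3) and 0 for KO against WT in controls, at 30 min and at 24 h, with fewer libraries in the fit. Set 1 alone was added after seeing the data, and its lone KO library per condition was taken to vary like the WT groups. It called 0 in KO at 30 min, 1 in KO at 24 h (Plk2), 0 for KO 24 h against 30 min and 2 for KO against WT in controls (Sgk3 and Pim1). Models of the compared groups alone called 0 in KO at 30 min, 0 for KO 24 h against 30 min and 0 for KO against WT at 24 h. The block called 6 in KO at 24 h, 3 for KO 24 h against 30 min (Sik2, Sik3 and Pim1), 2 for KO against WT in controls (Sik3 at 0.52 ± 0.18, adjusted p = 0.0349, and Sgk3) and 2 for the difference in the 30 min response. Between genotypes the block is a replicate number that did not pair the libraries (0 of 12 correlations over 0.1). It changed no other count by over 1.5 times. DESeq2 called 5 in KO at 24 h, 2 for KO 24 h against 30 min, 2 for KO against WT in controls (Sgk3 and Pim1) and 1 for the 30 min difference in response. Without the 3 libraries of KO culture 4 and the KO 30 min library of replicate 3, 4 kinases differed between controls (Sik3, Sgk1, Sgk3 and Pim1) and 2 at 24 h (Sgk1 and Sgk3). The causes were not tested.

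Leaving out 1 library at a time gave 3 to 3 called kinases in WT at 30 min, 4 to 7 in WT at 24 h, 1 to 1 in KO at 30 min, 2 to 3 in KO at 24 h, 4 to 6 for WT 24 h against 30 min, 0 to 1 for KO 24 h against 30 min, 1 to 3, 2 to 5 and 0 to 1 for KO against WT in controls, at 30 min and at 24 h, and 0 to 1 and 0 to 0 for the differences in the 30 min and 24 h responses. The 1 in the 30 min response was Pim3 without WT 30 min replicate 3 (-0.98, adjusted p = 0.0387).

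Over all genes the WT 24 h changes numbered 3133, and 5298 with the block, 4945 in the compared groups alone, 237 in set 2 alone and 5564 without the 4 KO libraries named above. The KO 24 h changes numbered 942, and 2834, 552, 19 and 1641 in the same order and 1506 by DESeq2. The 30 min difference in response held 8 genes, 30 with the block, 15 with no filter on low counts, 23 by DESeq2 and 4 in the compared groups alone. The 24 h difference in response held 6 genes, 299 with the block, 12 with no filter, 58 by DESeq2 and 111 without those KO libraries, and set 2 alone gave 0 genes for either difference in response. WT 24 h against 30 min gave 2699, and 4846 with the block, 132 in set 2 alone and 5071 without those KO libraries. KO 24 h against 30 min gave 438, and 1939 with the block, 27 in the compared groups alone, 0 in set 2 alone, 853 by DESeq2 and 1169 without those KO libraries. The WT 30 min changes numbered 62, and 98 with the block and 25 in set 2 alone, and the KO 30 min changes 21, and 10 in set 2 alone. KO against WT gave 3592, 4760 and 2223 genes in controls, at 30 min and at 24 h, and 599, 957 and 11 in set 2 alone, 2688 at 30 min in the compared groups alone and 5435 at 24 h without those KO libraries. Set 1 alone gave 4 genes in KO at 30 min, 122 in KO at 24 h, 163 for KO 24 h against 30 min, 3449 for KO against WT at 24 h and 0 for either difference in response. Leaving out 1 library gave 482 (without KO 24 h replicate 2) to 985 genes in KO at 24 h, 152 (without KO 24 h replicate 1) to 1089 (without KO 30 min replicate 4) for KO 24 h against 30 min, 1216 (without KO 24 h replicate 3) to 3138 for KO against WT at 24 h, and 4 to 13 and 0 to 11 for the differences in response. Counts also moved by over 1.5 times without KO control replicates 2 and 4 and KO 24 h replicates 1 and 3 for KO at 24 h, without KO 24 h replicate 2 and KO 30 min replicates 2 and 3 for KO 24 h against 30 min, and without WT 24 h replicate 1 and KO 24 h replicates 1 and 2 for KO against WT at 24 h. Depth limits Pim1, counted with 46 reads in its lowest library, and Sgk3 with 102.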

Other observations

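The genes next to Sgk3 on chromosome 1 did not follow 1 direction between the genotypes. Of 14 tested genes within 500 kb, chosen after the Sgk3 values were seen, 4 differed between KO and WT in at least 1 condition. Of all tested genes 21.4% differed in controls, 28.4% at 30 min and 13.3% at 24 h, so the count does not stand out from the background. Mcmdc2, the nearest on the 3′ side and at 0.857 CPM on average, had log2 ratios of KO to WT of -1.53 in controls (adjusted p = 0.0264), -1.88 at 30 min (adjusted p = 0.00681) and -0.37 at 24 h (adjusted p = 0.688). Mybl1 had ratios of 1.98 (adjusted p = 2.5e-05), 1.82 (adjusted p = 3.5e-05) and 0.46 (adjusted p = 0.274). Cpa6 was higher at 1.89, 1.78 and 2.23 (adjusted p = 0.00566, 0.00576 and 0.00312), and Sntg1 at 0.74, 0.53 and 0.42 (adjusted p = 9.5e-04, 0.00941 and 0.0596). Vcpip1, the nearest on the 5′ side at 104 CPM, had ratios of 0.01, 0.00 and -0.18 (adjusted p = 0.959, 0.979 and 0.226).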
